A study of Homo sapiens with 12 samples.

Results

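The 2 siRNA combinations that the series directs at the same pair of genes were compared directly: the 4 libraries titled siYAP/TAZ#1 with the 4 titled siYAP/TAZ#2, which are 8 of the 12 libraries of the series. They were taken by their sample titles. The remaining 4 libraries, of cells given a non-targeting control siRNA (siCo), served as the reference level. RNA was sequenced from A549 cells, an established human lung adenocarcinoma line, 24 hours after transfection. All 3 groups are the same line in the same serum-containing medium and all were transfected, so the siCo cells carry a transfection too. The series states 4 biological replicates for each combination, and each group had 4 libraries. Both combinations are directed at YAP and TAZ; the sequence and the dose of each siRNA are not given in the sources used here, and 1 cell line limits how far the values extend to other cells.

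YAP and TAZ are transcriptional coactivators that bind the TEAD factors, and the kinases of the Hippo pathway hold them in the cytoplasm; in lung adenocarcinoma cells they are known for driving growth and matrix genes. An siRNA works through 1 strand loaded into an Argonaute protein, which cuts an RNA that pairs with that strand along its length. A strand can also lower RNAs, mostly through their 3′ untranslated region (3′ UTR), that pair only with a short stretch near its 5′ end, the seed, as microRNAs do.

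The libraries held 29.6 to 38.3 (in units of 1e6) estimated counts, so that 10 counts corresponded to 0.261 to 0.338 CPM (counts per 1e6 counts). Levels are CPM after TMM scaling, in the order of replicates 1 to 4, and differences are log2 values ± standard error, siYAP/TAZ#2 minus siYAP/TAZ#1, with adjusted p from edgeR's quasi-likelihood test over all 21581 genes tested. siYAP/TAZ#2 replicate 1 stood apart from its group. Its deviation from the other 3 libraries had an SD of 0.364 (log2) over genes, against 0.174 to 0.230 for those 3 and 0.145 to 0.213 for the siYAP/TAZ#1 libraries. Counts are therefore also given without it. All 6 epithelial markers looked for were present (their summed level was 5106 to 6800 CPM over the 12 libraries; in these marker checks CPM is not TMM-scaled), and 17 of 27 markers of fibroblasts, endothelium, blood, muscle or nerve were under 1 CPM in every library. Of 20 alveolar epithelial markers, 11 were under 1 CPM everywhere.

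The targets were depleted by both combinations, to levels whose difference did not pass the test. Gene positions are on GRCh38. The level of YAP1 (ENSG00000137693, chromosome 11, 102110461 to 102233423, plus strand) was 125, 116, 124 and 121 CPM in siCo, 17.9, 19.2, 20.5 and 17.3 CPM with siYAP/TAZ#1 and 19.1, 17, 16.9 and 16.5 CPM with siYAP/TAZ#2. WWTR1, the gene of TAZ (ENSG00000018408, chromosome 3, 149517235 to 149736714, minus strand), stood at 239, 230.0, 254 and 240.2 CPM in siCo, at 31.2, 33.1, 33.5 and 33.7 CPM with siYAP/TAZ#1 and at 29.7, 33, 31.6 and 35.3 CPM with siYAP/TAZ#2. For both genes every treated library lay far below every siCo library, and the treated groups overlapped. The difference between the combinations was -0.11 ± 0.069 for YAP1 (adjusted p = 0.37, edgeR) and -0.020 ± 0.062 for WWTR1 (adjusted p = 0.90, edgeR). A 2-sided exact permutation test of 4 against 4 libraries gave p = 0.171 and p = 0.743 in turn, where 0.0286 is the smallest p this design allows.

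Against that, 3262 of 21581 genes (15.1%) differed between the combinations at an adjusted p under 0.05: 1769 (8.2%) were higher with siYAP/TAZ#2 and 1493 (6.92%) were higher with siYAP/TAZ#1. Without siYAP/TAZ#2 replicate 1 the count was 5127, and 3158 of the 3262 genes were among them. In limma on log2(TPM + 1) as deposited, 117 genes were called, with 1589 at an unadjusted p under 0.05, and 1754 were called once each library was scaled by its median ratio (an alternative chosen after seeing the data). The median difference over all genes was 0.0094, and the median size among the called genes was 0.43. A difference of at least 1 on the log2 scale was reached by 288 genes (1.33%), 142 of them higher with siYAP/TAZ#2 and 146 higher with siYAP/TAZ#1. In 2853 of the 3262 genes the 4 libraries of 1 combination all lay above the 4 of the other, a separation that 18.2% of all genes tested showed. Coding genes were called in 20.8% of cases, at a median level of 21.2 CPM over all libraries, and lncRNA genes in 2.8%, at a median of 0.692 CPM.

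Against siCo, 34.9% of all genes were called with siYAP/TAZ#1 and 38.2% with siYAP/TAZ#2. Set against these calls, the genes that differed fell into several classes. There were 1193 that both combinations moved in the same direction but to different degrees, 738 called against siCo with siYAP/TAZ#1 alone, 961 with siYAP/TAZ#2 alone, and 221 with neither. The other 149 were moved in opposite directions. Without siYAP/TAZ#2 replicate 1 the first of these counts was 2059. Among the 142 genes higher with siYAP/TAZ#2 by at least 1, 87 had fallen below siCo with siYAP/TAZ#1 (18.5% of all genes had) and 66 had risen with siYAP/TAZ#2 (19% of all genes had). Among the 146 higher with siYAP/TAZ#1 by at least 1, 113 had fallen with siYAP/TAZ#2 (19.2% of all genes had) and 49 had risen with siYAP/TAZ#1 (16.4% of all genes had). These comparisons share the treated libraries with the direct contrast, so the counts are a description of where the differences lay.

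Most of the genes with the largest differences were called lower than siCo with the combination in which they were lower: 13 of the 15 leading coding genes higher with siYAP/TAZ#2, and 15 of the 15 higher with siYAP/TAZ#1. The other combination also lowered 5 and 7 of them in turn. MAT2B (ENSG00000038274, chromosome 5, 163503114 to 163519336, plus strand), the regulatory subunit of the enzyme that makes S-adenosylmethionine, stood at 29, 29.8, 28.8 and 30.9 CPM in siCo, 5.07, 4.79, 4.77 and 5.65 CPM with siYAP/TAZ#1 and 28, 33.2, 38.7 and 35.9 CPM with siYAP/TAZ#2. Only the siYAP/TAZ#1 libraries were low, and the difference was 2.74 ± 0.098 (adjusted p = 2.11e-11). MPC2, a subunit of the mitochondrial pyruvate carrier, stood at 48.7, 53.6, 53.8 and 55.9 CPM in siCo, at 12.4, 13.2, 10.9 and 11 CPM with siYAP/TAZ#1 and at 82, 66.1, 74.2 and 71.9 CPM with siYAP/TAZ#2. Here siYAP/TAZ#2 lay above siCo in all 4 libraries, and the difference was 2.63 ± 0.084 (adjusted p = 7.52e-12). CNIH1, a cargo receptor of vesicles that leave the endoplasmic reticulum, stood at 68, 67, 67 and 74.9 CPM in siCo, at 8.42, 9.61, 10.8 and 10.1 CPM with siYAP/TAZ#1 and at 32, 44.5, 45.2 and 43.1 CPM with siYAP/TAZ#2, so both combinations lowered it and siYAP/TAZ#1 did so further (difference 2.08 ± 0.11, adjusted p = 1.05e-09).

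EPAS1 (ENSG00000116016, chromosome 2, 46293667 to 46386703, plus strand), which encodes the hypoxia-inducible factor HIF-2α and was the most abundant of these genes, showed the same order at a high level. It stood at 898, 899, 898 and 913 CPM in siCo, 85.1, 90.3, 81.2 and 87.8 CPM with siYAP/TAZ#1 and 336, 314, 322 and 334 CPM with siYAP/TAZ#2. Each group was tight and none overlapped (difference 1.92 ± 0.052, adjusted p = 1.11e-12). The chromatin protein DEK had mean levels of 77.9 ± 5.23, 20.8 ± 1 and 67.2 ± 7.97 CPM in the order siCo, first and second combination (SD, n = 4 each). MTA2, a subunit of the NuRD deacetylase complex, stood at 152 ± 5.43, 38 ± 1.12 and 118 ± 7.49 CPM in the same order. MIS18A, which helps to load the centromeric histone CENP-A, stood at 9.61 ± 1.23, 1.84 ± 0.453 and 7.77 ± 0.56 CPM. TMEM184C, the stress granule protein G3BP2 and C9orf64 completed the genes lowered mainly by siYAP/TAZ#1, with differences of 1.59 ± 0.068, 1.58 ± 0.098 and 1.56 ± 0.078. The transcription factor KLF2 belonged to the same 15 genes (45.9 ± 9.29, 13.6 ± 1.31 and 42.6 ± 12.3 CPM), with 1 siYAP/TAZ#2 library, replicate 1, at 60.9 CPM and the other 3 at 34.3 to 37.7 CPM. NACAD and NEB, the gene of the muscle protein nebulin, differed from the rest in that both combinations raised them above siCo, siYAP/TAZ#2 further. NACAD stood at 0.673, 0.431, 0.488 and 0.398 CPM in siCo, 2.08, 2.65, 1.7 and 1.77 with siYAP/TAZ#1 and 10.5, 7.52, 9.16 and 9.8 with siYAP/TAZ#2.

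In the other direction, TMTC3 (ENSG00000139324, chromosome 12, 88142296 to 88199887, plus strand), which encodes a protein of the endoplasmic reticulum that adds mannose to cadherins, led the genes lowest with siYAP/TAZ#2. It stood at 61.2, 59.5, 64.1 and 72.7 CPM in siCo, 65.1, 63.2, 65.6 and 71.9 CPM with siYAP/TAZ#1 and 7.23, 9.16, 9.08 and 11.3 CPM with siYAP/TAZ#2. The siYAP/TAZ#1 libraries lay within the siCo range and the difference was -2.85 ± 0.11 (adjusted p = 3.14e-11). UHMK1, a serine/threonine kinase, stood at 177, 166, 174 and 191 CPM in siCo, at 101, 98.3, 97 and 103 CPM with siYAP/TAZ#1 and at 11.5, 18.4, 16.4 and 15 CPM with siYAP/TAZ#2 (difference -2.70 ± 0.10, adjusted p = 4.05e-11). TNFRSF21, the death receptor DR6, stood at 222, 228, 240.0 and 216 CPM in siCo, at 170.3, 181, 169 and 158 CPM with siYAP/TAZ#1 and at 32.6, 27.2, 28.9 and 27.6 CPM with siYAP/TAZ#2 (difference -2.54 ± 0.070, adjusted p = 1.11e-12). In both, siYAP/TAZ#1 libraries lay below siCo as well, but by far less.

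Cell cycle genes were among them. CDC25A, the phosphatase that activates CDK2, stood at 56, 54.7, 60.3 and 54.7 CPM in siCo, 37.1, 39.5, 37.2 and 36.7 with siYAP/TAZ#1 and 10.1, 10.4, 10.4 and 9.89 with siYAP/TAZ#2 (difference -1.88 ± 0.060, adjusted p = 7.52e-12). SKP2, the ubiquitin ligase subunit that marks p27 for degradation, stood at 54.8, 51.1, 49.6 and 56.9 CPM in siCo, at 41.3, 38.9, 37.3 and 37.7 CPM with siYAP/TAZ#1 and at 11.7, 12.7, 11.6 and 11.5 CPM with siYAP/TAZ#2 (difference -1.71 ± 0.067, adjusted p = 5.03e-11). For both genes the 3 groups were separate, siYAP/TAZ#2 lowest. E2F5, a repressive E2F factor, stood at 17.3 ± 0.727, 17.6 ± 0.785 and 3.93 ± 0.424 CPM, and BTG3, an antiproliferative protein, at 7.83 ± 0.903, 6.63 ± 0.366 and 2.05 ± 0.253 CPM, in the order siCo, siYAP/TAZ#1, siYAP/TAZ#2 (SD, n = 4 each). The tight junction claudin CLDN12 stood at 27.1 ± 2.11, 31.7 ± 1.35 and 9.04 ± 1.22 CPM. LYRM1, OSTM1, ARL6IP1, LIN7C, C1orf43 and GPR157 were likewise lowest with siYAP/TAZ#2, with differences from -2.26 (LYRM1) to -1.85 (GPR157).

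**Figure D1:**
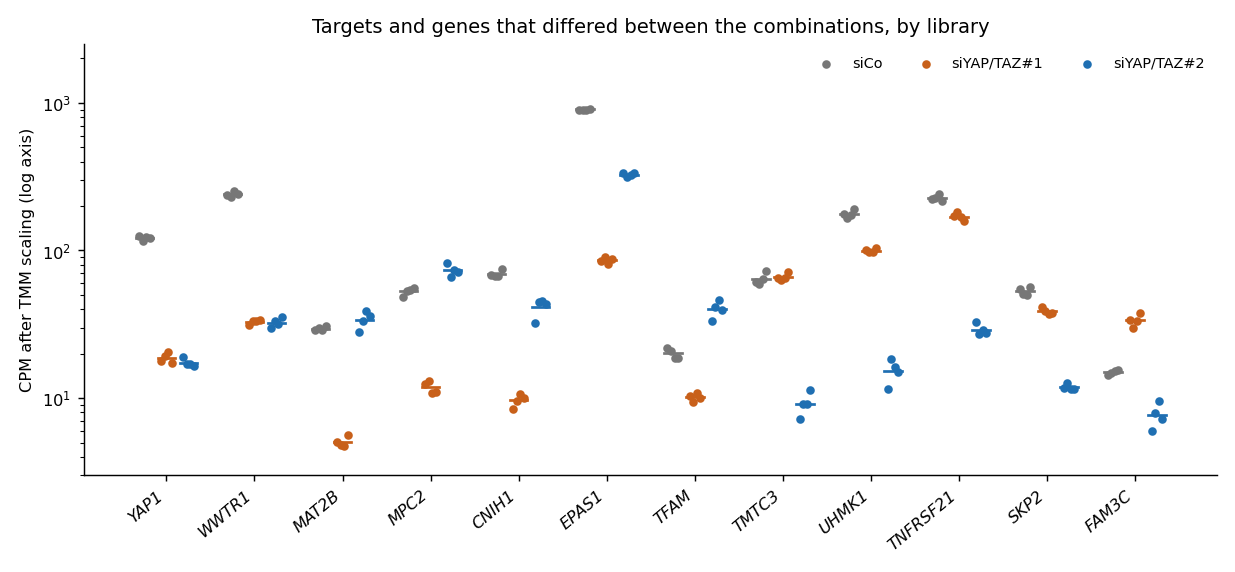
Level of 12 genes in every library (CPM after TMM scaling, log axis). Points are single libraries of siCo, siYAP/TAZ#1 and siYAP/TAZ#2 and short bars are group means over 4 libraries. YAP1 and WWTR1 overlap between the combinations, MAT2B to TFAM are lowest with siYAP/TAZ#1, and TMTC3 to FAM3C are lowest with siYAP/TAZ#2.

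To describe what the genes share in sequence, every 7-letter word was ranked by the direct difference of the genes whose 3′ UTR holds it. The longest annotated 3′ UTR of each of 12965 genes was read on the transcript's own strand, and 11658 words that at least 500 of these UTRs hold were ranked. The shift of a word is the mean difference of the genes that hold it minus the mean of the rest. Because the words were chosen for their values, the shifts, and the counts of holders given below, carry no test and support nothing on their own. The first word lower with siYAP/TAZ#1 was GGAACTT, with a shift of 0.15; the next in rank, GAACTTA, overlaps it by 6 letters and had 0.065. The first word lower with siYAP/TAZ#2 was CTTCTTA, with a shift of -0.20; the next, TTCTTAA, also overlaps its neighbour by 6 letters and had -0.16. With UTRs that hold either first word set aside, GAACTTA and TTCTTAA led the 9972 UTRs left, and in the round after that, over 7999 UTRs, GATAAAG led for siYAP/TAZ#1 (0.076) and AATCACA for siYAP/TAZ#2 (-0.0465). AATCACA was barely ahead of the next word in that round (-0.0456), whereas GATAAAG was followed by an overlapping word at 0.047. Over all 12965 UTRs, which the later counts use, the shift was 0.031 for GATAAAG and -0.082 for AATCACA. The SD between the siYAP/TAZ#2 libraries was 0.079 and 0.078 in turn.

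The words are shown here in the RNAs where they were read, because they recur in the genes with the largest differences and also stand in the 2 target mRNAs. Where a UTR holds a word more than once, 1 copy is shown, and it is not always the first. The copies of CTTCTTA shown are all followed by A, as in the YAP1 coding sequence. TMTC3, UHMK1, TNFRSF21, CLDN12 and SKP2 also hold copies followed by another letter. So does ADAM17, lowest with siYAP/TAZ#2 and not shown. CNIH1, lowest with siYAP/TAZ#1, holds CTTCTTA followed by A and is not shown with it. Each line gives 30 bases on the transcript strand, 5′ to 3′, from GENCODE v29 on GRCh38, with the word in capitals. The first set holds GGAACTT, in the coding sequence of WWTR1 and in 3′ UTRs of genes lowest with siYAP/TAZ#1.
WWTR1 coding sequence: acgttgacttaGGAACTTtggaatctgaag
MAT2B: gtttgaagaaaGGAACTTtatttttgcaag
MPC2: acatgacttaaGGAACTTatctatggatat
CNIH1: ttttgtttataGGAACTTgtagggctcatt
EPAS1: accaattacatGGAACTTttctgtaatggg
The second set holds GATAAAG, in the coding sequence of YAP1 and in 3′ UTRs of 2 further genes lowest with siYAP/TAZ#1.
YAP1 coding sequence: ccaccaagctaGATAAAGaaagctttctta
TFAM: aattaagaaagGATAAAGttggtaaacctt
MIS18A: ctatattttatGATAAAGaagtgattgttt
The third set holds CTTCTTA, in the coding sequence of YAP1 across an exon junction and in 3′ UTRs of genes lowest with siYAP/TAZ#2.
YAP1 coding sequence: ggtcagagataCTTCTTAaatcacatcgat
TMTC3: ttaaattggtaCTTCTTAaaaccataacct
UHMK1: ttcctttataaCTTCTTAacagtgtcaaaa
TNFRSF21: gaggctcttaaCTTCTTAaaagtataatgg
LYRM1: aattcaaatgtCTTCTTAaaacctccacaa
CLDN12: gttggccttaaCTTCTTAatcattgatcca
SKP2: gccaaattctaCTTCTTAaaaatcacaaaa
The fourth set holds AATCACA, in the coding sequence of WWTR1, again across a junction, and in the 3′ UTR of a gene lowest with siYAP/TAZ#2.
WWTR1 coding sequence: ggtacttcctcAATCACAtagaaaaaatca
FAM3C: cttatatgctaAATCACAttcagcatgtgt

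On the genome the WWTR1 stretch with GGAACTT is chr3:149520876-149520905 (minus strand), and the YAP1 stretch with GATAAAG is chr11:102229900-102229929 (plus strand). The UTR stretches of the first 2 sets are chr5:163518814-163518843 (plus, MAT2B), chr1:167918121-167918150 (minus, MPC2), chr14:54427447-54427476 (minus, CNIH1), chr2:46386210-46386239 (plus, EPAS1), chr10:58395152-58395181 (plus, TFAM) and chr21:32268739-32268768 (minus, MIS18A). Those of the last 2 sets are chr12:88199006-88199035 (plus, TMTC3), chr1:162528797-162528826 (plus, UHMK1), chr6:47232339-47232368 (minus, TNFRSF21), chr16:20924206-20924235 (plus, LYRM1), chr7:90414562-90414591 (plus, CLDN12), chr5:36183564-36183593 (plus, SKP2) and chr7:121348986-121349015 (minus, FAM3C). The words are common. GGAACTT stands in 11.6% of the 3′ UTRs read, GAACTTA in 9.67%, GATAAAG in 11.2%, CTTCTTA in 14.7%, TTCTTAA in 24.5% and AATCACA in 14.3%. The YAP1 stretch of the third set holds TTCTTAA and AATCACA as well. The target mRNAs also hold CTTCTTA in the 3′ UTRs of both YAP1 and WWTR1 and GATAAAG in that of WWTR1. Whether any of these words pairs with a strand of the siRNAs used was not tested.

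For the leading word of each combination, the genes that hold it were called more often in 1 direction. The words were chosen from these same differences, so the shares are a description and not support. Of the genes with GGAACTT in the 3′ UTR, 30.4% were called higher with siYAP/TAZ#2, against 10.7% of the other genes, while 11% and 10.4% were called higher with siYAP/TAZ#1. Of the genes with CTTCTTA, 28.8% were called higher with siYAP/TAZ#1, against 7.27% of the others, while 10.3% and 13.4% were called higher with siYAP/TAZ#2. Without siYAP/TAZ#2 replicate 1 the first pair was 40.3% and 18.4% and the pair for CTTCTTA was 31.7% and 13%. Of the holders of AATCACA, 18.3% were called higher with siYAP/TAZ#1, against 9.13% of the other genes, while 11.7% and 13.2% were called higher with siYAP/TAZ#2. Without that library the holders of AATCACA were called as often in either direction, 21.7% each, against 14.8% of the others higher with siYAP/TAZ#1 and 20.8% higher with siYAP/TAZ#2. The median difference was lower with more copies of CTTCTTA. It was 0.038 with none (11057 genes), -0.077 with 1 (1565 genes), -0.14 with 2 (275 genes) and -0.30 with 3 or more (68 genes). For GGAACTT the medians were 0.019 with none, 0.091 with 1 and 0.18 with 2 copies (183 genes), and 0.037 with 3 or more (20 genes). Genes that hold a word have longer 3′ UTRs (median 3200 bases with GGAACTT against 1230 without it), and within UTRs of 500 to 2000 bases the shifts were 0.24 for GGAACTT and -0.25 for CTTCTTA. The same words in the coding sequence went with smaller shifts, 0.085 and -0.069.

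By library, holders of GGAACTT stood below other genes by 0.18 to 0.21 (mean log2 change against the siCo mean) in the 4 siYAP/TAZ#1 libraries and by 0.011 to 0.034 in siYAP/TAZ#2 replicates 2 to 4. Holders of CTTCTTA stood below other genes by 0.15 to 0.19 in those 3 siYAP/TAZ#2 libraries, and between 0.048 below and 0.0097 above them in the siYAP/TAZ#1 libraries. siYAP/TAZ#2 replicate 1 was the lowest of its group for holders of each of the 6 words (-0.14 for GGAACTT and -0.33 for CTTCTTA). For 2 of the words read as lower with siYAP/TAZ#1 it lay below every siYAP/TAZ#1 library as well, at -0.22 against -0.19 to -0.12 for GAACTTA and at -0.16 against -0.11 to -0.052 for GATAAAG. The median over all ranked words was -0.13 in that library and between -0.039 and 0.022 in the other 11.

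**Figure D2:**
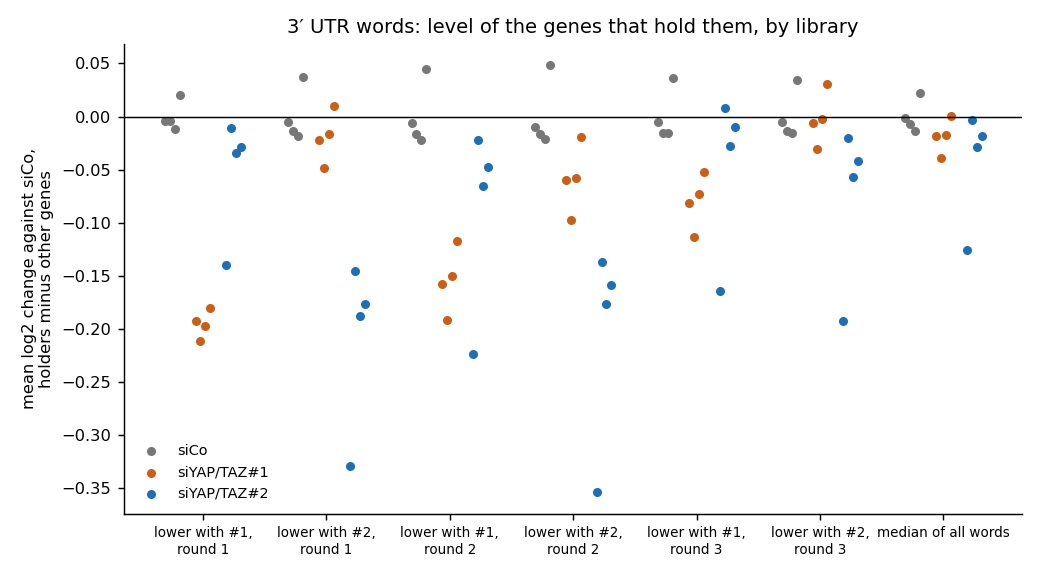
Mean log2 change against the siCo mean of genes whose 3′ UTR holds a word, minus that of the other genes, for each of the 6 words and for the median of all ranked words. Points are single libraries. Holders of the first word of siYAP/TAZ#1 lie at -0.18 to -0.21 in the siYAP/TAZ#1 libraries, and siYAP/TAZ#2 replicate 1 is the lowest of its group in every column.

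Sorted by the words they hold, the largest differences divided unevenly. Words and genes were both picked by the same difference, so the counts below describe their overlap and support nothing. Of 112 genes with a 3′ UTR read that were higher with siYAP/TAZ#1 by at least 1, 74 held words of siYAP/TAZ#2 only, 1 (0.893%) held words of siYAP/TAZ#1 only, 32 held both kinds and 5 held none. Of 115 genes higher with siYAP/TAZ#2 by at least 1, 37 held words of siYAP/TAZ#1 only, 7 held words of siYAP/TAZ#2 only, 35 held both and 36 held none. Among all 12965 genes, 10.1% held words of siYAP/TAZ#1 only, 21.6% words of siYAP/TAZ#2 only, 15% both kinds and 53.3% none. NACAD and NEB held none of the 6 words in the 3′ UTR and KLF2 held only AATCACA. All 15 leading genes lowest with siYAP/TAZ#2 held a word of that combination, and 12 of the 15 leading genes higher with siYAP/TAZ#2 held a word of siYAP/TAZ#1. The sets overlap, since 3 of the former also held a word of siYAP/TAZ#1 and 7 of the latter a word of siYAP/TAZ#2. Called genes without any word remain numerous: 748 of the 1680 higher with siYAP/TAZ#2 and 342 of the 1354 higher with siYAP/TAZ#1.

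**Figure D3:**
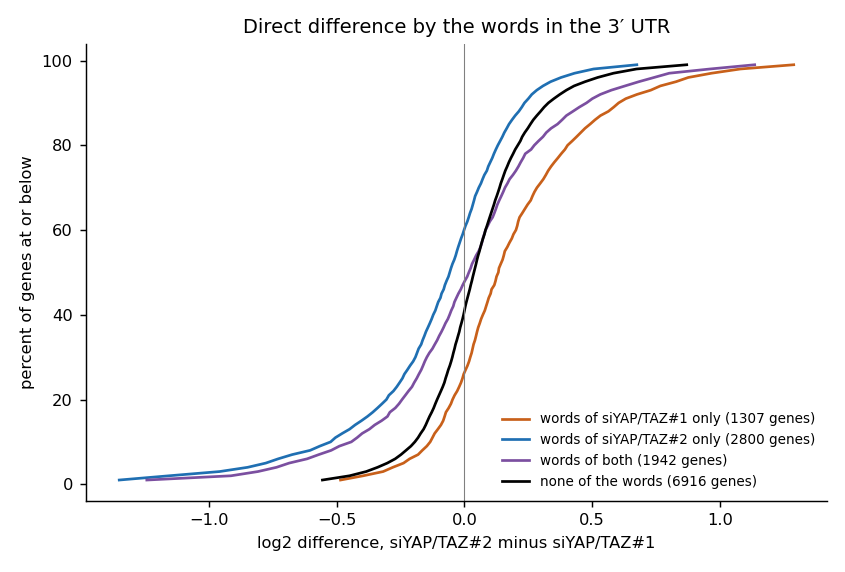
Percent of genes at or below each log2 difference (siYAP/TAZ#2 minus siYAP/TAZ#1), from the 1st to the 99th percentile, for genes whose 3′ UTR holds words of siYAP/TAZ#1 only, of siYAP/TAZ#2 only, of both, or none. Genes with words of siYAP/TAZ#1 only (median 0.13) lie to the right of genes with no word (median 0.037), and genes with words of siYAP/TAZ#2 only (median -0.057) lie to the left.

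Genes moved in opposite directions against siCo numbered 149 (0.69% of genes tested). All 149 were also called in the direct contrast, which nearly follows from the definition, since the 2 opposite changes add up in it. Of them, 68 were lower with siYAP/TAZ#1 and higher with siYAP/TAZ#2, and 81 the reverse. Both comparisons share the siCo libraries. Without siYAP/TAZ#2 replicate 1 the count was 311, and 147 of the 149 were among them. With library sizes alone in place of TMM scaling 180 genes were called so, and they held 79 of the 149. TFAM (ENSG00000108064, chromosome 10, 58385022 to 58399221, plus strand), the factor that packages and transcribes mitochondrial DNA, stood at 21.9, 21, 18.8 and 18.7 CPM in siCo, 10.3, 9.49, 10.8 and 10.1 CPM with siYAP/TAZ#1 and 33.3, 41.5, 46.1 and 39.8 CPM with siYAP/TAZ#2. The change was -0.99 ± 0.096 with siYAP/TAZ#1 (adjusted p = 7.05e-07) and 0.999 ± 0.091 with siYAP/TAZ#2 (adjusted p = 3.00e-07), and the 3 groups did not overlap. The 13 mRNAs that the mitochondrial genome encodes gave no call between the combinations in edgeR (2 without siYAP/TAZ#2 replicate 1), with differences from -0.11 to 0.26. GALNT12, which starts mucin-type glycans, stood at 3.52, 3.57, 3.04 and 4.38 CPM in siCo, at 1.5, 2.17, 1.52 and 1.77 CPM with siYAP/TAZ#1 and at 8.02, 7.75, 6.55 and 5.67 CPM with siYAP/TAZ#2. RBPJ, the DNA-binding effector of Notch, stood at 18.9 ± 1.21, 12.8 ± 1.42 and 34 ± 4.8 CPM (SD, n = 4 each).

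RHOB, an endosomal small GTPase, was the most abundant of the named genes in that direction. It stood at 300.5, 263, 327 and 269.8 CPM in siCo, 199.7, 212, 202 and 189 with siYAP/TAZ#1 and 569.7, 383, 418 and 444 with siYAP/TAZ#2, where replicate 1 was highest. CREB3L1, STMN3, TCAIM and the metallothionein MT1F went the same way, with changes from -0.80 (CREB3L1) to -0.54 (TCAIM) with siYAP/TAZ#1 and from 0.58 (TCAIM) to 0.77 (MT1F) with siYAP/TAZ#2; metallothionein genes are near-identical copies, so the split of reads among them is uncertain.

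FAM3C (ENSG00000196937, chromosome 7, 121348851 to 121396364, minus strand), a secreted cytokine-like protein linked to epithelial to mesenchymal transition, led the reverse direction. It stood at 14.4, 14.8, 15.3 and 15.6 CPM in siCo, 33.8, 29.9, 33.5 and 37.8 CPM with siYAP/TAZ#1 and 5.97, 7.96, 9.56 and 7.17 CPM with siYAP/TAZ#2. The changes were 1.17 ± 0.11 (adjusted p = 4.52e-07) and -0.97 ± 0.12 (adjusted p = 5.35e-06). PDZD8, a lipid transfer protein of the endoplasmic reticulum, stood at 205, 204, 203 and 212 CPM in siCo, at 319.8, 328, 324 and 337 CPM with siYAP/TAZ#1 and at 108, 122, 123 and 117 CPM with siYAP/TAZ#2. ADAM17, the protease that sheds TNF and EGFR ligands, stood at 48.3, 48.4, 47.5 and 50.8 CPM in siCo, at 73.9, 70.5, 71.4 and 74.9 CPM with siYAP/TAZ#1 and at 22.9, 29.3, 26.6 and 26.6 CPM with siYAP/TAZ#2. In both genes the 3 groups were separate. FICD, an enzyme that AMPylates the chaperone BiP, stood at 13.9 ± 0.632, 22.1 ± 0.999 and 8.41 ± 0.964 CPM, and PRKAA2, a catalytic subunit of AMPK, at 21.2 ± 2.34, 31.7 ± 1.74 and 13.3 ± 2.51 CPM. The hyaluronan-degrading protein CEMIP, the monocarboxylate transporter SLC16A7 and the lncRNA TYMSOS made up the rest of the 8 named.

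The words were chosen from direct differences that include these genes, so the following counts are again a description. Of the opposite genes lower with siYAP/TAZ#1, 30 of 68 held words of siYAP/TAZ#1 only, 6 held words of siYAP/TAZ#2 only and 12 held none. Of the 79 coding genes lower with siYAP/TAZ#2, 49 held words of siYAP/TAZ#2 only, 0 held words of siYAP/TAZ#1 only and 8 held none. Among all genes with a 3′ UTR read, 10.1% held words of siYAP/TAZ#1 only, 21.6% words of siYAP/TAZ#2 only and 53.3% none. The opposite coding genes had longer 3′ UTRs (median 2865 bases, against 1354 over all coding genes tested), and long UTRs hold more words. CREB3L1 and MT1F held none of the 6 words, RBPJ held 2 copies of GGAACTT, and PRKAA2 held 2 copies of CTTCTTA and 3 of TTCTTAA.

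**Figure D4:**
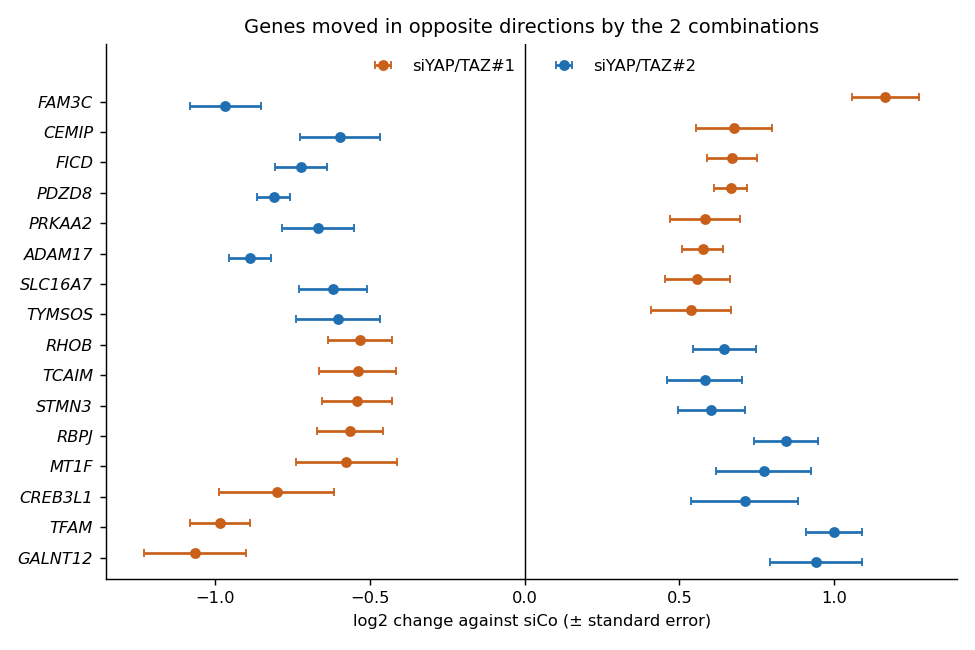
Log2 change against siCo (± standard error, edgeR, 4 libraries a group) of the 16 named genes that the combinations moved in opposite directions. Both points of a gene are set against the same 4 siCo libraries. siYAP/TAZ#1 and siYAP/TAZ#2 lie on opposite sides of 0 for each of the 16, with GALNT12, TFAM and FAM3C farthest apart.

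Among lncRNA genes, 134 of 4792 (2.8%) differed, 97 of them higher with siYAP/TAZ#1. The count was 89 without siYAP/TAZ#1 replicate 1, 89 without siYAP/TAZ#1 replicate 3, and 226 without siYAP/TAZ#2 replicate 1. Calls followed the level: of lncRNA genes at 20 CPM or more, 24 of 100 were called, against 26.2% of coding genes at that level, and of those under 1 CPM, 19 of 2954. LINC00707 (ENSG00000238266, chromosome 10, 6779549 to 6879450, plus strand) stood at 11.3, 10.1, 12.3 and 12 CPM in siCo, 1.41, 1.63, 1.75 and 1.55 with siYAP/TAZ#1 and 5.97, 6.38, 7.36 and 8.11 with siYAP/TAZ#2. Both combinations lowered it, siYAP/TAZ#1 further (difference 2.13 ± 0.13, adjusted p = 5.56e-09). OIP5-AS1, an abundant lncRNA known to bind microRNAs and HuR, stood at 82, 76.7, 75.7 and 89.2 CPM in siCo, at 40.1, 37.7, 39 and 41.7 CPM with siYAP/TAZ#1 and at 48.7, 65.6, 63.6 and 62.3 CPM with siYAP/TAZ#2 (difference 0.60 ± 0.085, adjusted p = 9.56e-05). NORAD, which sequesters PUMILIO proteins, went the other way, at 208, 226, 224 and 213 CPM in siCo, at 271, 289, 276 and 268 CPM with siYAP/TAZ#1 and at 181, 146, 154 and 142 CPM with siYAP/TAZ#2 (difference -0.83 ± 0.070, adjusted p = 3.64e-07). NORAD lay above siCo with siYAP/TAZ#1 and below it with siYAP/TAZ#2 in all 4 libraries each.

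TYMSOS, which lies next to the thymidylate synthase gene, stood at 3.55, 3.79, 3.75 and 3.39 CPM in siCo, 5.59, 5.61, 4.82 and 4.98 with siYAP/TAZ#1 and 2.56, 1.94, 2.93 and 2.07 with siYAP/TAZ#2. TYMSOS and NORAD were the 2 lncRNA genes moved in opposite directions. LINC02593 was raised by both combinations and more by siYAP/TAZ#1 (7.4 ± 0.183, 15.9 ± 0.285 and 9.44 ± 0.404 CPM). ITGB1-DT, transcribed away from the integrin gene ITGB1, stood at 4.76 ± 0.386, 4.66 ± 0.327 and 7.34 ± 0.666 CPM in the order siCo, first and second combination (SD, n = 4 each). LINC00886, SP2-AS1 and NAPA-AS1 were higher with siYAP/TAZ#2 by 0.90 ± 0.18, 0.70 ± 0.15 and 0.64 ± 0.16. GJD3-AS1 and LINC01719 were higher with siYAP/TAZ#1, with differences of -0.83 ± 0.15 and -0.81 ± 0.20. NPY2R-AS1, MBNL1-AS1, GREM1-AS1, SYT9-AS1 and LGALS8-AS1 stood between 0.225 and 2.08 CPM, and their calls did not hold in every alternative setting. The call of GREM1-AS1 was lost without siYAP/TAZ#2 replicate 3 (adjusted p = 0.055, edgeR), that of SYT9-AS1 without siYAP/TAZ#1 replicate 3 or 4 or siYAP/TAZ#2 replicate 2 (highest adjusted p = 0.12, edgeR), and that of MBNL1-AS1 without siYAP/TAZ#1 replicate 2 or 3 or siYAP/TAZ#2 replicate 1 or 4 (highest adjusted p = 0.11, edgeR). Those of NPY2R-AS1 and LGALS8-AS1 were lost in 7 and 11 of 15 alternative settings (highest adjusted p = 0.15 and 0.12, edgeR). Whether the counting used strand is not given in the sources used here, so reads of an antisense gene and its partner cannot be told apart.

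A readout that the count test does not use is the ratio of a gene's estimated count to its TPM, which follows the mean length of the transcripts its reads were assigned to. It differed between the combinations for 34 of 13025 genes (0.261%) in limma, 24 of them shorter with siYAP/TAZ#2 (0.184%) and 10 shorter with siYAP/TAZ#1 (0.0768%). The count was 12 to 18 when any 1 siYAP/TAZ#1 library or siYAP/TAZ#2 replicate 3 or 4 was left out. CUX1, a homeobox factor, had a log2 length relative to the library median of 1.09 ± 0.031 in siCo, 1.20 ± 0.011 with siYAP/TAZ#1 and 0.55 ± 0.083 with siYAP/TAZ#2 (SD, n = 4 each; difference -0.65 ± 0.037, adjusted p = 4.35e-05, limma). RAC1, a small GTPase of the actin cytoskeleton, had -0.73, -0.70 and -1.09 in the same order (difference -0.40 ± 0.028, adjusted p = 1.53e-04, limma). PDXK, SSR3, SLC11A2, UBE2K and MSRB3 were likewise shorter with siYAP/TAZ#2, by 0.41 to 0.68, and all 7 of these genes were also lower in CPM with siYAP/TAZ#2. MMS22L and HSD17B2 were shorter with siYAP/TAZ#1 (differences 0.42 and 0.50), and the CPM of HSD17B2 did not pass the test (difference 0.050, adjusted p = 0.92, edgeR). PDCD6 differed from these: its transcripts were longer with siYAP/TAZ#1 than in siCo or siYAP/TAZ#2, and its level was higher with siYAP/TAZ#2 (difference 1.10). LLPH had the same order, at 0.62 with siYAP/TAZ#1, 0.15 in siCo and 0.062 with siYAP/TAZ#2, and a CPM difference of 1.17. ADAM17 and G3BP1 lay 0.26 and 0.14 above siCo with siYAP/TAZ#1 and 0.11 and 0.090 below it with siYAP/TAZ#2, none of which passed the test. Shorter here is therefore relative to the other combination.

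The words were chosen from the direct differences in CPM, and most genes that differed in length were also called there. The following counts are therefore a description and not support. Of the 24 genes shorter with siYAP/TAZ#2, 23 held a siYAP/TAZ#2 word in their longest 3′ UTR, 11 held a siYAP/TAZ#1 word and 21 were called lower in CPM with siYAP/TAZ#2. Of the 10 shorter with siYAP/TAZ#1, 8 held a siYAP/TAZ#1 word, 8 held a siYAP/TAZ#2 word and 8 were called lower in CPM with siYAP/TAZ#1; EPAS1 and MTA2 were among them. These genes had long 3′ UTRs (medians 4006 and 4442 bases, against 1430 over all 11686 genes of the length test with a 3′ UTR read), and long UTRs hold more words. A siYAP/TAZ#2 word stood in 37.2% of all those genes and in 60.1% of the 5640 with a UTR of at least 1500 bases. For siYAP/TAZ#1 words the shares were 25.5% and 42.7%. Of all 11686 genes, 1307 were called lower in CPM with siYAP/TAZ#2 and 1573 were called lower with siYAP/TAZ#1. The targets themselves did not pass the length test between the combinations. WWTR1 had a relative length of 0.037 in siCo, -0.60 with siYAP/TAZ#1 and -0.23 with siYAP/TAZ#2 (difference 0.36 ± 0.086, adjusted p = 0.21, limma). Against siCo, WWTR1 was called shorter with siYAP/TAZ#1 (-0.63, adjusted p = 0.022, limma). With siYAP/TAZ#2 its change against siCo did not pass the test (-0.27, adjusted p = 0.34, limma).

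The genes of the targeted pathway differed in part. Beside this and the following lists stand the shares over all genes tested, 8.2% higher with siYAP/TAZ#2 and 6.92% higher with siYAP/TAZ#1. Coding genes were called in 20.8% of cases in either direction, and in 26.2% at 20 CPM or more. In a list of 24 YAP/TAZ target genes, 9 were higher with siYAP/TAZ#2 and 1 was higher with siYAP/TAZ#1, at a median difference of 0.027 (0.0094 over all genes). Without siYAP/TAZ#2 replicate 1 the counts were 9 and 5. TGFB2, a growth factor (133, 27.9 and 47.5 CPM as means, in the order control, first and second combination), CRIM1 (378, 176 and 299), IGFBP3 (62.8, 31.9 and 52.9) and the matricellular protein CCN2 (22.7, 2.71 and 4.5) were the higher ones with the largest differences, 0.77, 0.77, 0.73 and 0.73. AMOTL2 was higher with siYAP/TAZ#1 (difference -0.43). Of 31 components of the Hippo pathway, 5 were higher with siYAP/TAZ#2 and 9 with siYAP/TAZ#1 (7 and 12 without replicate 1; here and in the following lists, replicate 1 is that of siYAP/TAZ#2). The kinase LATS1, its adaptor MOB1B and the scaffold WWC1 were among the 9, with differences of -0.47, -0.54 and -0.48, and VGLL3, a TEAD partner, had the largest (-0.91). The paralog MOB1A went the other way (0.34).

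Genes of the RNA interference machinery and of the interferon response were looked at next. Of 21 genes, 4 were higher with siYAP/TAZ#2 and 6 with siYAP/TAZ#1 (6 and 6 without replicate 1). AGO2, the Argonaute that cuts its targets, stood at 244, 256, 246 and 249 CPM in siCo, 242, 238, 237 and 241 with siYAP/TAZ#1 and 143, 149, 137 and 142 with siYAP/TAZ#2 (difference -0.75 ± 0.048, adjusted p = 1.31e-08). AGO4 and DICER1, the nuclease that makes microRNAs, were also lower with siYAP/TAZ#2 (-0.63 and -0.47), while AGO1 and CNOT1, the scaffold of the deadenylase complex, were higher (0.25 and 0.53). Of 31 interferon-stimulated genes, 0 were higher with siYAP/TAZ#2 and 3 with siYAP/TAZ#1 (IFIT1, OASL and IFIT2), a share of 9.68% beside 15.1% of all genes, at a median of -0.0038; without replicate 1 the counts were 3 and 2. The calls of OASL and IFIT2 were lost in 10 and 7 of 15 alternative settings (highest adjusted p = 0.16 and 0.15, edgeR). STAT2, which transmits interferon signals, was higher with siYAP/TAZ#2 (26.6 ± 0.963, 19.3 ± 1.69 and 40.2 ± 3.88 CPM).

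Genes of the cell cycle and of cell death split in both directions. Of 21 G1 cyclins, CDKs and regulators, 6 were higher with siYAP/TAZ#2 and 8 with siYAP/TAZ#1 (7 and 10 without replicate 1), the latter led by CDC25A and SKP2 and joined by CCND1 (-0.72) and MYC (-0.59). The pocket proteins RB1 and RBL2, which restrain E2F factors, were higher with siYAP/TAZ#2 (0.78 and 1.08). Of 48 DNA replication genes, 6 and 8 were called (13 and 10 without replicate 1), at a median of -0.0031. That share, 29.2%, was near the 26.2% of coding genes at 20 CPM or more. Of 36 mitosis genes 3 and 3 were called (8 and 3 without replicate 1), a share of 16.7% beside 15.1% of all genes and 20.8% of coding genes, at a median of 0.024. p53 targets gave 7 and 10 of 30 (10 and 10 without replicate 1), at a median of -7.0e-05. The DNA damage responder TP53INP1 stood at -1.28 and the BH3 protein PMAIP1 at -0.96, while ZMAT3 was higher with siYAP/TAZ#2 (0.50). Apoptosis regulators gave 4 and 8 of 28. MCL1, an inhibitor of apoptosis, stood at 205, 214, 205 and 203 CPM in siCo, 129, 124, 123 and 125 with siYAP/TAZ#1 and 46, 48.2, 46.5 and 41.8 with siYAP/TAZ#2 (difference -1.46 ± 0.055, adjusted p = 3.14e-11).

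Several metabolic and stress lists held more members lower with siYAP/TAZ#2. In cholesterol and fatty acid synthesis, 3 of 35 were higher with siYAP/TAZ#2 and 13 with siYAP/TAZ#1 (4 and 17 without replicate 1), at a median of -0.19. SREBF2, the master factor of the pathway, stood at 266, 260.5, 247 and 247 CPM in siCo, 304, 329, 293 and 318 with siYAP/TAZ#1 and 170.5, 155, 165 and 163 with siYAP/TAZ#2 (difference -0.93 ± 0.056, adjusted p = 6.47e-09). IDI1, an isomerase of the pathway, followed with -0.73, whereas the epoxidase SQLE was higher with siYAP/TAZ#2 (0.58). NRF2 targets and antioxidant enzymes gave 1 and 11 of 30 (1 and 14 without replicate 1), median -0.12, led by glutathione reductase GSR (-0.85) and the glutathione synthesis subunit GCLM (-0.76). ATF4 targets gave 2 and 8 of 30, with the cystine transporter SLC7A11 at -0.65 and ATF4 itself at -0.45. Of 27 endoplasmic reticulum chaperones and unfolded protein response genes, 3 and 8 were called; ERO1B and DNAJC3 were lower with siYAP/TAZ#2 (-1.02 and -0.85) and the chaperone HSPA5 was higher (0.67).

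Receptors and signalling genes differed from list to list. Of 36 receptor tyrosine kinases and ligands, 1 was higher with siYAP/TAZ#2 and 11 with siYAP/TAZ#1 (2 and 14 without replicate 1). The insulin receptor INSR stood at 30.4, 29.8, 33.5 and 31.5 CPM in siCo, 42.1, 44.2, 38.3 and 43.1 with siYAP/TAZ#1 and 16, 16.2, 16.1 and 15.3 with siYAP/TAZ#2 (difference -1.40 ± 0.065, adjusted p = 3.82e-10), and FGF2, IGF1R and MET were among the others, at -0.81, -0.42 and -0.34. Wnt and Notch genes gave 2 and 11 of 34 (4 and 16 without replicate 1), among them the Notch target HEY1 (-0.998) and the Wnt feedback genes DKK1 and AXIN2 (-0.68 and -0.62). Of 33 TGF-beta and BMP genes, 6 and 7 were called, with the type I receptor TGFBR1 higher with siYAP/TAZ#2 (1.14) and the mediator SMAD3 lower (-0.62). AP-1 and early response genes gave 4 and 8 of 28, at a median of -0.15.

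In other lists more members were higher with siYAP/TAZ#2. Membrane trafficking and secretion gave 12 and 6 of 37 (17 and 7 without replicate 1). The endosomal GTPase RAB5A stood at 35.4, 31.4, 31.9 and 38.3 CPM in siCo, 14.4, 15, 14.8 and 18.4 with siYAP/TAZ#1 and 26.8, 38, 38.4 and 35.7 with siYAP/TAZ#2 (difference 1.15 ± 0.11, adjusted p = 1.84e-06), and the SNARE protein YKT6 and the coat subunit SEC23A differed by 0.78 and 0.58. RAB27B, a GTPase of secretory vesicles, was lower with siYAP/TAZ#2 (-1.45) and its paralog RAB27A higher (0.50). Autophagy and lysosome genes leaned the other way, 4 and 11 of 41 (8 and 13 without replicate 1), with LAMP2 at -0.77 and BECN1 at -0.73. Of 12 metallothionein and zinc transport genes, 6 were higher with siYAP/TAZ#2 and 1 with siYAP/TAZ#1 (7 and 1 without replicate 1), at a median of 0.39. MT1X stood at 20.6 ± 1.85, 5.67 ± 0.851 and 13 ± 1.75 CPM in that order, the metal-sensing factor MTF1 differed by 0.83 and the zinc importer SLC39A10 by 1.25.

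Genes of cell shape and identity also differed. Of 36 actin cytoskeleton genes 8 were higher with siYAP/TAZ#2 and 4 with siYAP/TAZ#1 (9 and 4 without replicate 1). TAGLN2, an actin-binding protein, stood at 664, 647, 629 and 646 CPM in siCo, 158, 157, 148 and 163 with siYAP/TAZ#1 and 426, 444, 464 and 458 with siYAP/TAZ#2 (difference 1.52 ± 0.052, adjusted p = 1.64e-11). The cofilin CFL2 was lower with siYAP/TAZ#2 (-1.33). Focal adhesion and integrin genes gave 6 and 3 of 32, with ITGAV at 0.86 and ITGB3, its partner, at -0.72. Their share, 28.1%, lay close to the 26.2% of coding genes at 20 CPM or more. Of 13 airway epithelial markers 5 were higher with siYAP/TAZ#2 and 1 with siYAP/TAZ#1 (5 and 2 without replicate 1), median 0.34, among them the mucins MUC5B (13.5, 33.2 and 55.4 CPM) and MUC5AC (80.6, 119 and 170.2 CPM). Of 12 alveolar epithelial markers tested, 1 (8.33%) was called, beside 15.1% of all genes. In markers of other cell types, 3 of 14 tested (21.4%) were called. Of these, COL3A1, a fibrillar collagen under 1 CPM in each group, had the largest difference (0.219, 0.0837 and 0.376 CPM). The summed level of the 14, after TMM scaling, was 106.5 to 114.2 CPM in siCo, 124.9 to 129.3 CPM in siYAP/TAZ#1 and 113.6 to 134.6 CPM in siYAP/TAZ#2, and its part in the results was not tested. In bulk RNA, fewer cells of a type and less RNA per cell cannot be told apart.

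Some lists gave few calls. Histone genes gave 0 of 23 in edgeR, proteasome subunits 1 of 31 and splicing factors 2 of 36. Ribosome biogenesis gave 2 of 30, aminoacyl-tRNA synthetases 2 of 20 and cytosolic ribosomal proteins 5 of 86. The shares beside these were 15.1% of all genes tested, 20.8% of coding genes and 26.2% of coding genes at 20 CPM or more. Without siYAP/TAZ#2 replicate 1, the histone genes gave 3, the tRNA synthetases 9, the proteasome 5, the splicing factors 5, ribosome biogenesis 6 and the cytosolic ribosomal proteins 14, where 5127 of 22166 genes were called. The few calls among the tRNA synthetases therefore turned with that 1 library, to 9 of 20.

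**Figure D5:**
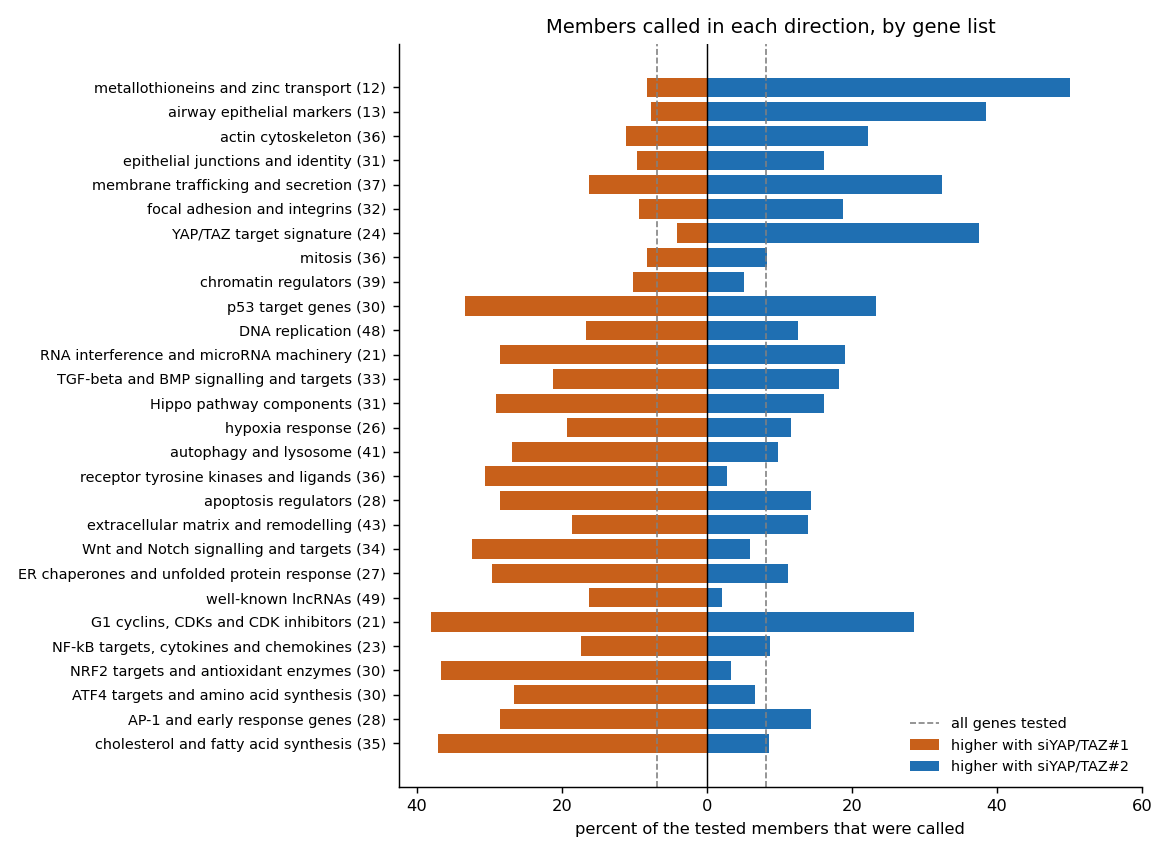
Percent of the tested members of each gene list (number tested in brackets) called higher with siYAP/TAZ#1 (left) or with siYAP/TAZ#2 (right), for the lists with at least 6 calls, sorted by their median difference. Dashed lines mark the shares over all genes tested, 6.92% and 8.2%. Cholesterol synthesis, AP-1 and NRF2 genes lie mostly to the left, and metallothionein, airway and membrane trafficking genes mostly to the right.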

How the data were processed

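RNA sequencing libraries of 12 samples of A549 cells were used, 4 in each of siCo, siYAP/TAZ#1 and siYAP/TAZ#2, grouped by their titles. The authors deposited, for each library, estimated counts per gene, not whole and not scaled, and TPM values, which are relative to the total of each library. Per the submitters' processing notes, Trim Galore 0.6.4, kallisto 0.4.6 and the build GRCh38.p13 were named; their settings, the summing of transcripts to genes and the use of strand are not given in the sources used here. Reads that fit several near-identical genes are shared out by such estimates.

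Counts were rounded to whole numbers, genes with low counts were removed with edgeR's filterByExpr, and libraries were scaled by TMM. The test was edgeR's quasi-likelihood test (edgeR 4.0.16, R 4.3.3) on all 12 libraries with group as the only term, Benjamini-Hochberg adjustment over all 21581 genes and a threshold of 0.05. Mean transcript length was log2 of the estimated count over the TPM, relative to the library median, tested with limma 3.58.1 in genes with at least 50 estimated counts. Words were counted with Python 3.11.15 in the longest 3′ UTR of each gene in GENCODE v29. The scripts were tested on simulated data. Alternatives were library size alone, DESeq2 1.42.0, other filters, log2(TPM + 1), GC and length offsets, a replicate block and leaving out each library.

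Genes were named by rule: YAP1 and WWTR1; the 15 coding genes per direction with the largest called difference, whose libraries did not overlap and whose mean reached 5 CPM in 1 of the groups; for lncRNAs, 8 in each direction with 1 CPM as the minimum; the 8 opposite genes per direction by the smaller change against siCo; 10 genes by transcript length; and up to 4 members of each list by adjusted p. STAT2, EPAS1, MTA2, LLPH, G3BP1 and some further list members were named after their values were seen. The members and lists were chosen with earlier results of these data known. The labels speak of biological replicates, and no label says that equal numbers share a day or culture.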

Additional observations from a re-analysis of the deposited data

Results flagged for a closer look

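In each group of 4 libraries, the highest or lowest value was set against Dixon's 95% limit for 49 genes of the text, the library totals and scaling factors, and the word shifts, 174 groups in all, of which chance would flag about 1 in 20. In total 10 stood apart. In siYAP/TAZ#2 replicate 1, KLF2 stood at 60.9 CPM, against 34.3 to 37.7 CPM in the other 3 libraries, and CNIH1 at 32 CPM, against 43.1 to 45.2 CPM. In siYAP/TAZ#1, CDC25A stood at 39.5 CPM in replicate 2 (36.7 to 37.2 in the others), MUC5AC at 125 CPM in replicate 3 (117 in the others), RAB5A at 18.4 CPM in replicate 4 (14.4 to 15 in the others) and TGFB2 at 25.6 CPM in replicate 4 (28.4 to 28.8 in the others). In siCo, CNIH1 stood at 74.9 CPM in replicate 4 (67 to 68 in the others), EPAS1 at 913 CPM in replicate 4 (898 to 899 in the others) and MIS18A at 11.4 CPM in replicate 2 (8.82 to 9.21 in the others). The shift of holders of TTCTTAA was 0.0482 in siCo replicate 4 and -0.0213 to -0.0103 in the other siCo libraries.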

How the results depend on the processing

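Without any 1 library, 2541 to 5127 genes differed (1278 to 2840 higher with siYAP/TAZ#2, 1178 to 2287 higher with siYAP/TAZ#1), 89 to 226 lncRNA genes differed, 117 to 311 genes moved in opposite directions, 867 to 2059 were moved by both combinations the same way, and 12 to 40 changed in mean transcript length; the highest value of each came without siYAP/TAZ#2 replicate 1. In limma on log2(TPM + 1), 117 genes differed (78 and 39), 73 of them by at least 1, with 3 lncRNA genes, 1 opposite gene, 11 moved by both and 95 by 1 combination. After median ratio scaling of the TPM, chosen after seeing the data, the values were 1754 (826 and 928), 90, 61 opposite, 471 and 1086. The share of calls higher with siYAP/TAZ#2 was 54.2% as reported, 66.7% on TPM and 47.1% on the scaled TPM. With GC offsets 4946 genes differed, 2327 of them higher with siYAP/TAZ#1, with 207 lncRNA genes, 278 opposite genes and 2158 moved by both. The cause was not tested. With library size alone, DESeq2, no filter, a mean of at least 1 CPM, length offsets or only the treated libraries, 2671 to 3790 genes differed. Correlations between libraries of different groups, as deviations from the group mean, reached 0.429 for different replicate numbers. Those of same-numbered libraries ran from -0.298 to 0.406. For replicate 4 they were 0.321, 0.273 and 0.406, against highest values of -0.114, 0.294 and 0.266 with other numbers. For replicate 1 they were low (0.0925 to 0.106) but above every other number. Replicates 2 and 3 lay below the highest other number in each pair of groups. Whether equal numbers share a batch was not tested. With the replicate block 3266 genes differed, 152 in opposite directions, and 20 in mean transcript length. For named genes, 2881 values kept their call, 118 lost it and 0 reversed; 1 gene had no adjusted p in DESeq2.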
